A study of Mus musculus with 29 samples.

Results

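The comparison described here is that of Ly6C-low with Ly6C-high macrophages sorted from the spleen of mice that lack RNase T2, the endosomal enzyme that cuts single-stranded RNA. It used 7 of the 29 libraries of the series, 4 of Ly6C-low and 3 of Ly6C-high macrophages, and all autosomal genes with at least 1 read per 1000000 mapped reads (1 RPM) in at least 3 of those 7 libraries. Of 23930 genes in the table, 21922 were placed on an autosome and 9955 passed that filter. Of these, 247 reached 1 RPM in Ly6C-low libraries only and 55 in Ly6C-high libraries only, so that such genes could enter only through the subset in which they were higher.

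The mice carried deletions of both mouse RNase T2 genes (Rnaset2a-/-Rnaset2b-/-, written Rnaset2-/- below) and had received no treatment. Their age is not given in the labels. Splenocytes were first depleted with magnetic beads of lymphocytes, neutrophils and erythroid cells. Both gates then required CD11b and the absence of Ly6G, Siglec-F and NK1.1, and the Ly6C-low gate high and the Ly6C-high gate low Fcgr4 (CD16.2). The 6 libraries of the same subsets from wild-type spleen, 3 of each, were used for the genotype comparison only. Replicates are separate samples in the labels, but the labels do not say that each came from its own mouse, so p-values measure the spread between these samples, which may be technical. Because whole sorted populations were sequenced, fewer cells of a type and less RNA per cell cannot be told apart.

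Ly6C-high monocytes leave the bone marrow, enter tissues through CCR2 and can divide or mature there. Ly6C-low monocytes are largely their progeny, depend on the nuclear receptor NR4A1 and stay in the vessels and the red pulp, where they take up debris and dying cells. In the spleen, red pulp macrophages formed under the factor SpiC recycle the iron of aged erythrocytes.

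The sort was first checked on the genes of the gates. Fcgr4 was at 3394, 3231, 4238 and 4635 RPM in the Ly6C-low libraries and at 112, 157 and 119 RPM in the Ly6C-high libraries (log2 fold change 4.91 ± 0.20 SE, adjusted p = 1.27e-05), so that the libraries did not overlap, as the gate itself required. Itgam, which encodes CD11b, was at 2218, 2323, 1694 and 2109.7 RPM in Ly6C-low and 1698, 2104 and 1929.9 RPM in Ly6C-high libraries and did not pass the test (adjusted p = 0.55). The Ly6c and RNase T2 genes were not analysed here, so neither the second gate nor the deletion could be checked on its own gene. The macrophage genes Csf1r, Cd68 and Lyz2 were detected in each of the 7 libraries.

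The Ly6C-low libraries were not alike. Replicates 3 and 4 correlated at 0.992 (Pearson's r of log2(RPM + 1) across genes, which are not independent replicates), whereas replicate 1 correlated with the other Ly6C-low libraries at 0.932 to 0.966 and the Ly6C-high libraries with each other at 0.984 to 0.988. Markers of neutrophils and their precursors, such as S100a8, Camp and Elane, summed to 43588, 24489, 4667 and 3676 RPM in Ly6C-low replicates 1 to 4 and to 36180.0, 63039 and 60189 RPM in the Ly6C-high libraries. Erythroid markers summed to 1361, 398, 96.8 and 117 RPM and to 14.7, 26.9 and 25.3 RPM, and markers of B and plasma cells to 881, 1416, 275 and 225 RPM and to 119.9, 157 and 116 RPM. The neutrophil list includes Fcnb, which monocytes express too. In wild-type spleen that list summed to 1158 to 2614 RPM in Ly6C-low and to 32844 to 35102 RPM in Ly6C-high libraries. It thus separated the subsets in both genotypes, and the part of neutrophils in its sums was not tested. Among the Rnaset2-/- Ly6C-low libraries, replicates 1 and 2 were the highest for all 3 lists. Each comparison below was therefore also fitted with only Ly6C-low replicates 3 and 4 against the 3 Ly6C-high libraries, a choice made after these values were seen. Y-linked genes summed to 301 RPM in replicate 2 and to at most 0.427 RPM in the other 12 splenic libraries, while Xist was at 0.781 RPM in replicate 2 and at 353 RPM or more in the others. Replicate 2 thus read as male and the other 12 as female, so that it did not share a mouse with them. Whether the other 12 came from separate mice cannot be told from these genes. Ly6C-high libraries held 20404155 to 21167602 reads and Ly6C-low libraries 14059645 to 14193723, so that depth and subset cannot be told apart.

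**Figure D1:**
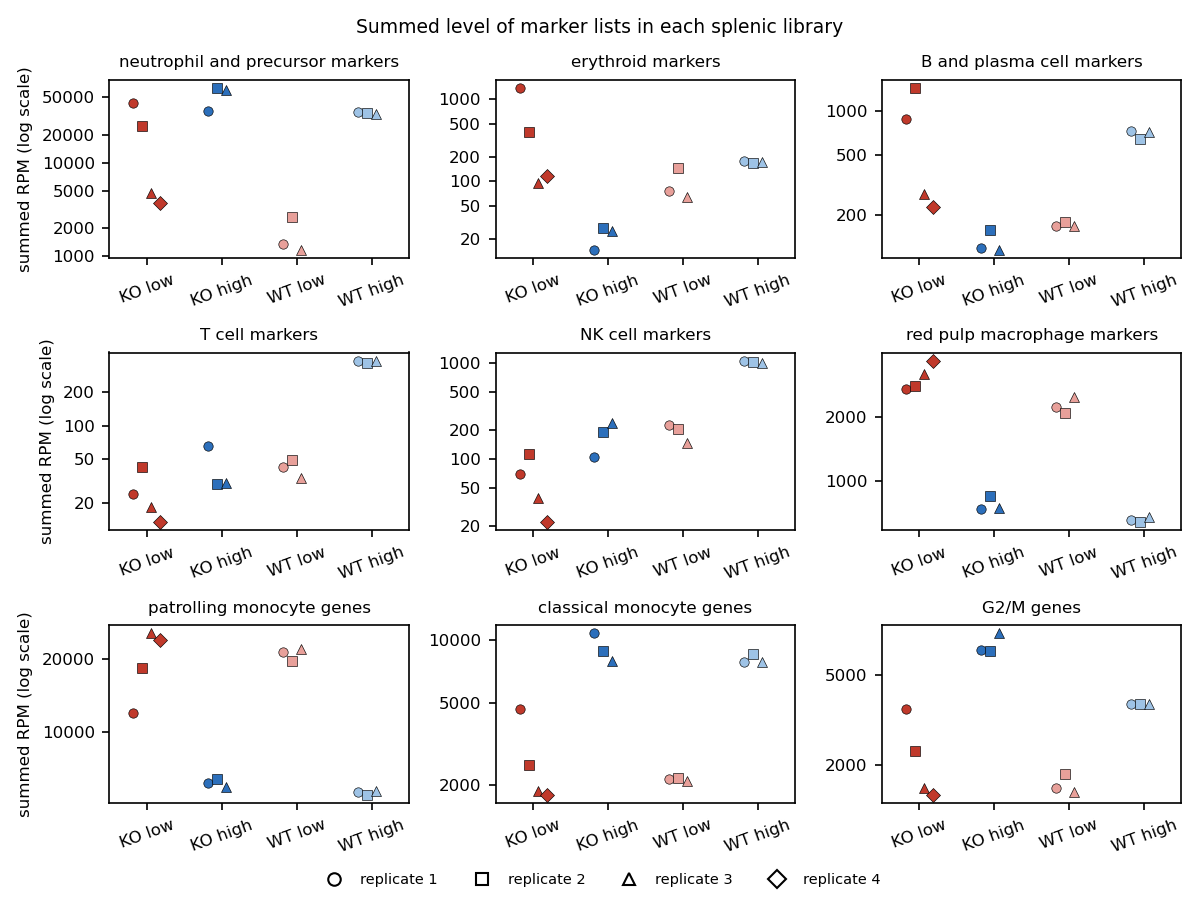
Summed RPM of 9 gene lists (panels, log scale) in each splenic library, by genotype and subset (Rnaset2-/-, KO; wild-type, WT), with the marker shape giving the replicate number. Ly6C-low KO replicates 1 and 2 held 43588 and 24489 RPM of neutrophil markers against 4667 and 3676 RPM in replicates 3 and 4, and the patrolling list was higher in every Ly6C-low library than in every Ly6C-high library.

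Between the subsets, 1306 genes (13.1%) were higher and 1502 (15.1%) lower in Ly6C-low macrophages at >1.5-fold and an adjusted p below 0.05. The median log2 fold change over the 9955 genes was -0.02. The 4 Ly6C-low libraries lay above the 3 Ly6C-high libraries for 2068 genes (20.8%) and below them for 2164 (21.7%). With replicates 3 and 4 alone, 1666 were higher and 2010 lower of 9546 genes tested. The Ly6C-high libraries weighed most on the counts, which were 767 higher without Ly6C-high replicate 3, and 970 and 873 lower without Ly6C-high replicates 2 and 3.

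**Figure D2:**
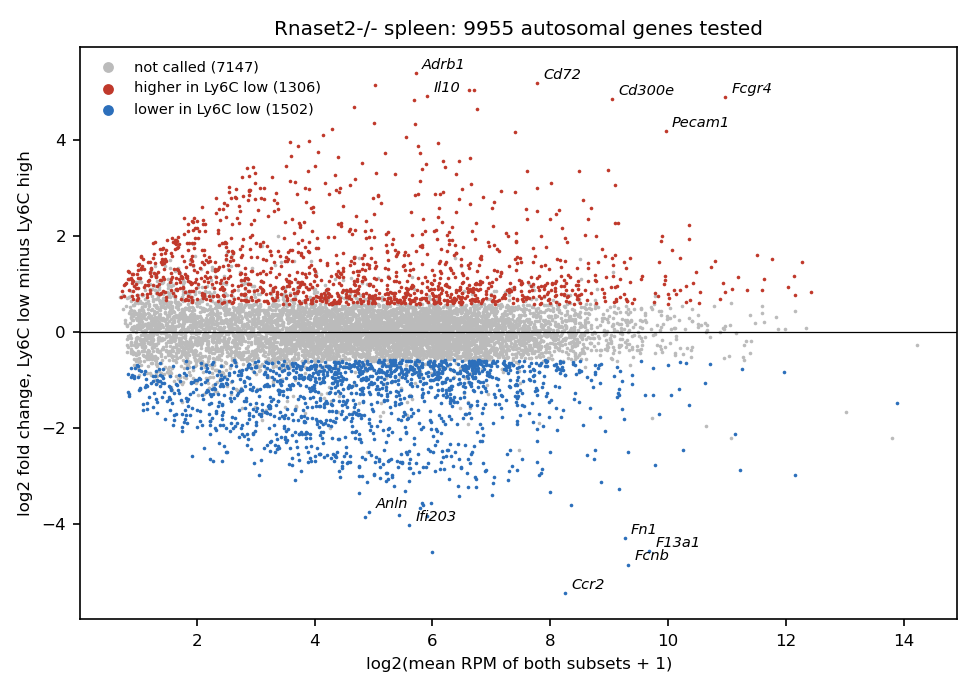
Each point is 1 of 9955 autosomal genes, with log2 of the mean RPM of both subsets + 1 on the x axis and the log2 fold change of Ly6C-low over Ly6C-high on the y axis. The 1306 genes called higher are red, the 1502 called lower blue. Adrb1 has the highest fold change, 5.40, and Ccr2 the lowest, -5.44.

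Among the 12 largest rises outside the gate genes were genes of surface receptors and secreted proteins. Adrb1 (chr19:56722199-56733113, GRCm38), which encodes the beta-1 adrenergic receptor, was at 81.7, 111, 97.5 and 117 RPM in Ly6C-low and 1.04, 1.67 and 1.61 RPM in Ly6C-high libraries (log2 fold change 5.40 ± 0.19 SE, adjusted p = 1.2e-05), a 70.7-fold difference in mean RPM. Every Ly6C-low library lay far above the Ly6C-high libraries. Cd72 (chr4:43446462-43454628), an inhibitory co-receptor best known from B cells, was at 635, 344, 335 and 386 RPM against 16.0, 7.79 and 8.64 RPM (log2 fold change 5.196 ± 0.27 SE, adjusted p = 2.25e-05). Ly6C-low replicate 1 was the highest for Cd72, and the fold change was 5.06 without replicates 1 and 2. Fcrl5, another inhibitory receptor of the Fc receptor-like family, reached 271, 136, 164 and 194 RPM against 5.72, 4.31 and 4.04 RPM (log2 fold change 5.05 ± 0.22 SE, adjusted p = 1.27e-05). Camk2n1, an inhibitor of the kinase CaMKII, was at 35.1, 82.5, 60.9 and 70.5 RPM against 0.614, 0.980 and 0.522 RPM (log2 fold change 5.16 ± 0.30 SE, adjusted p = 3.85e-05). Both were separated in all 7 libraries.

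Il10 (chr1:131019845-131024974), the anti-inflammatory cytokine, was at 80.4, 55.8, 157 and 167 RPM in Ly6C-low and 2.36, 4.90 and 1.14 RPM in Ly6C-high libraries (log2 fold change 4.92 ± 0.48 SE, adjusted p = 0.000394). Replicates 3 and 4 held more Il10 than replicates 1 and 2, and all 4 lay above the Ly6C-high libraries. Cd300e, an activating receptor of patrolling monocytes, was at 638, 997, 1268 and 1179 RPM against 30.7, 40.9 and 29.7 RPM (log2 fold change 4.86 ± 0.27 SE, adjusted p = 3.07e-05). Adamdec1, a metalloprotease of macrophages, was at 391, 130.3, 142 and 146 RPM against 6.14, 2.84 and 5.18 RPM (log2 fold change 5.04 ± 0.37 SE, adjusted p = 0.00012). Cd5l, the apoptosis inhibitor of macrophages, was at 431, 173, 87.4 and 138 RPM against 3.87, 8.68 and 6.03 RPM (log2 fold change 4.66 ± 0.47 SE, adjusted p = 0.000458), and replicate 1 was highest for both Adamdec1 and Cd5l. The fold change of Cd5l was 4.06 with replicates 3 and 4 alone.

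Art3 (log2 fold change 4.69), Ptprm (4.37), Adam23 (4.33) and Slc4a1 (4.85) complete the 12 largest rises. Slc4a1 encodes the anion exchanger of erythrocytes. It was at 321, 36.3, 17.8 and 25.2 RPM in Ly6C-low and 0.236, 1.32 and 0.760 RPM in Ly6C-high libraries (log2 fold change 4.85 ± 0.85 SE, adjusted p = 0.00447), moved with the erythroid marker sums given above, and had a fold change of 3.74 without replicates 1 and 2. What part erythroid cells have in it was not tested.

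**Figure D3:**
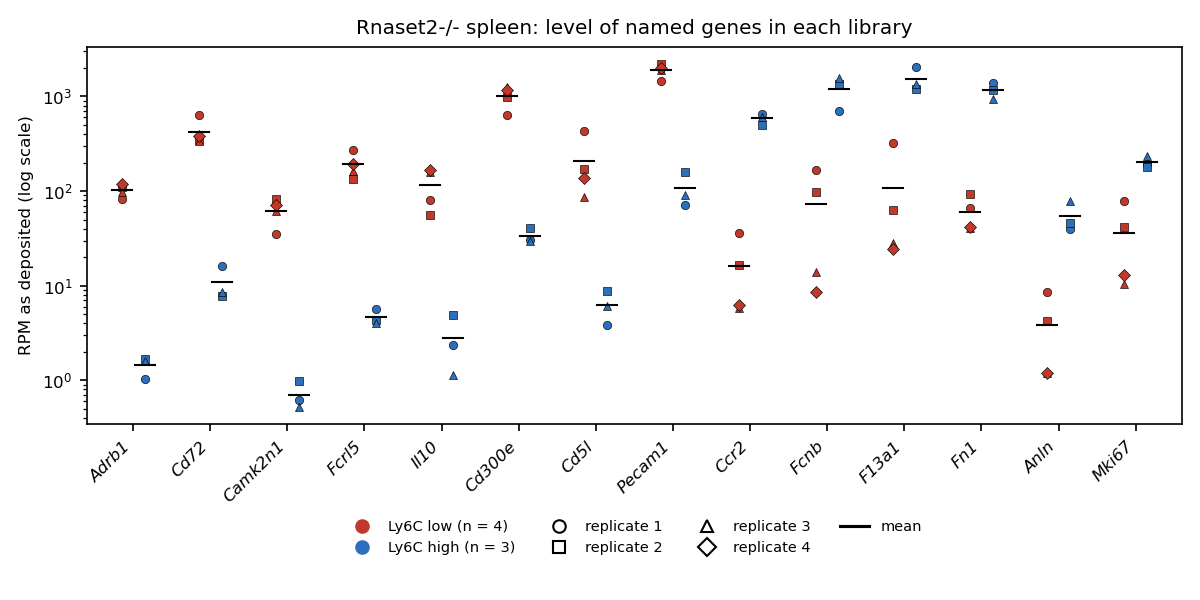
RPM as deposited (y axis, log scale) of 14 genes in each of the 4 Ly6C-low (red) and 3 Ly6C-high (blue) libraries of Rnaset2-/- spleen, with marker shapes for replicate numbers and bars for means. The subsets do not overlap for any of the 14, and Ly6C-low replicates 1 and 2 lie nearest to the Ly6C-high libraries for Ccr2, Fcnb, Anln and Mki67.

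Ccr2 (chr9:124101950-124113557), the receptor by which monocytes enter tissue, fell most. It was at 36.1, 16.5, 5.82 and 6.200 RPM in Ly6C-low and 654, 497 and 613 RPM in Ly6C-high libraries (log2 fold change -5.44 ± 0.52 SE, adjusted p = 0.000362), and was 36.4-fold higher by mean RPM in the latter. Replicates 3 and 4 were the lowest, and the fold change was -6.33 with these alone. Fn1, which encodes fibronectin, was at 66.6, 93.6, 40.5 and 41.8 RPM against 1403, 1158 and 932 RPM (log2 fold change -4.30 ± 0.28 SE, adjusted p = 6.08e-05). F13a1, the A chain of clotting factor XIII, was at 319, 63.0, 28.5 and 24.3 RPM against 2044, 1208 and 1339 RPM (log2 fold change -4.56 ± 0.75 SE, adjusted p = 0.00364), and Fcnb, the ficolin of immature neutrophils and monocytes, at 169, 97.8, 13.8 and 8.53 RPM against 695, 1349 and 1571 RPM (log2 fold change -4.85 ± 0.93 SE, adjusted p = 0.00673). For both, replicate 1 was the highest Ly6C-low library, as it was for the summed neutrophil markers. Their fold changes with replicates 3 and 4 alone were -5.71 and -6.52.

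Ifi203, of the interferon-inducible p200 family, was at 2.42, 2.98, 4.75 and 5.50 RPM against 42.8, 61.9 and 169 RPM (log2 fold change -4.02 ± 0.45 SE, adjusted p = 0.000728), with Ly6C-high replicate 3 the highest. The other genes of the 12 largest falls were AI839979 (-4.59), Stxbp6 (-3.87), Ms4a8a (-3.83), Mogat2 (-3.82) and 3 genes of cell division, Anln (-3.76), Nusap1 (-3.67) and Iqgap3 (-3.62).

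The genes that mark classical and patrolling monocytes were largely split between the subsets. Over all genes tested, 13.1% were higher and 15.1% lower in Ly6C-low macrophages. Of 22 patrolling genes, all tested, 18 were higher in Ly6C-low macrophages and none lower (median log2 fold change 1.61, all genes -0.02). Besides Cd300e, the most changed were Itgax, the integrin CD11c, at 514, 599, 742 and 762 RPM against 59.0, 77.8 and 52.7 RPM (log2 fold change 3.36 ± 0.21 SE, adjusted p = 5.68e-05), and Pparg, a lipid-sensing nuclear receptor, at 216, 326, 435 and 443 RPM against 31.7, 39.0 and 28.2 RPM (log2 fold change 3.36 ± 0.28 SE, adjusted p = 0.000204). Replicate 1 was the lowest Ly6C-low library for both. Nr4a1, the factor on which Ly6C-low monocytes depend, was at 2449, 4189, 7614 and 6751 RPM against 1781, 1713 and 1569.7 RPM (log2 fold change 1.52 ± 0.39 SE, adjusted p = 0.0195). The 4 members not called were Cx3cr1, Cd9, Spn and Ace. Cx3cr1, the fractalkine receptor, was at 32.7, 79.1, 121 and 108 RPM against 114, 82.9 and 87.2 RPM and overlapped between the subsets (adjusted p = 0.637). With replicates 3 and 4 alone, 20 of the 22 were higher.

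Of 18 classical genes, 16 were tested, of which 12 were lower and 2 higher (median -1.63). Vcan, the gene of a matrix proteoglycan, was at 80.7, 13.8, 5.96 and 7.75 RPM against 245, 154 and 98.2 RPM (log2 fold change -3.23 ± 0.75 SE, adjusted p = 0.0135). The 2 that were higher, Clec4e (0.92) and Sirpb1a (1.63), encode a C-type lectin and a signal-regulatory protein. They are named because they went against the list. Without replicates 1 and 2, 13 were lower and the same number, 2, higher.

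Genes of cell division were lower in Ly6C-low macrophages. Of 54 G2/M genes, 51 were tested, 46 were lower and none higher (median -2.46), against 15.1% of all genes tested that were lower. Mki67, which encodes the proliferation antigen Ki67, was at 78.0, 41.7, 10.5 and 12.96 RPM in Ly6C-low and 194, 178 and 234 RPM in Ly6C-high libraries (log2 fold change -2.88 ± 0.59 SE, adjusted p = 0.00843). Ly6C-low replicates 1 and 2 held more Mki67 than replicates 3 and 4 but stayed below every Ly6C-high library. Anln, the contractile ring protein anillin, was at 8.61, 4.26, 1.21 and 1.20 RPM against 39.8, 46.2 and 78.9 RPM (log2 fold change -3.76 ± 0.51 SE, adjusted p = 0.00162). The spindle genes Nusap1, at 24.5, 11.1, 3.26 and 1.76 RPM against 91.3, 92.7 and 111 RPM, and Dlgap5, at 25.5, 14.5, 4.40 and 3.10 RPM against 72.6, 90.4 and 88.1 RPM, had adjusted p of 0.00476 and 0.00546. Neither overlapped between the subsets. The 5 members not called were Tubb4b (-0.96), Hjurp (-0.54), Ctcf (-0.15), Hn1 (0.04) and Rangap1 (0.10).

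Of 43 S-phase genes, 39 were tested, 25 were lower and none higher (median -1.22), against 15.1% and 13.1% of all genes tested. Cdc45, part of the replicative helicase, was at 9.46, 5.82, 2.69 and 2.54 RPM against 24.4, 32.8 and 44.1 RPM (log2 fold change -2.61 ± 0.38 SE, adjusted p = 0.00214). The repressor gene E2f8 was at 64.4, 28.9, 6.17 and 8.88 RPM against 116, 129.9 and 157 RPM (log2 fold change -2.79 ± 0.66 SE, adjusted p = 0.0138) and lost its call without Ly6C-high replicate 2 or 3 (adjusted p = 0.0509 to 0.0568). Rrm2, a subunit of ribonucleotide reductase, was at 184, 59.97, 14.0 and 13.9 RPM against 175, 255 and 282 RPM, so that Ly6C-low replicate 1 overlapped the Ly6C-high libraries (log2 fold change -2.54 ± 0.79 SE, adjusted p = 0.0377). The call of Rrm2 was lost when any single library other than Ly6C-low replicate 1 was left out (adjusted p up to 0.117). The count of S-phase genes that were lower was 10 without Ly6C-high replicate 2, 8 without Ly6C-high replicate 3 and 14 without Ly6C-low replicate 3. With replicates 3 and 4 alone, 48 of 51 G2/M genes and 31 of 39 S-phase genes were lower. The G2/M genes summed to 3550.1, 2309, 1584 and 1479 RPM in the Ly6C-low and 6455, 6392 and 7646 RPM in the Ly6C-high libraries, and moved across the Ly6C-low libraries in the same order as the neutrophil precursor markers given above. The part of precursor cells in these counts was not tested.

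Many genes of mitosis share a short promoter element, the cell cycle genes homology region (CHR, TTTGAA), to which the DREAM complex and B-MYB bind, often beside CCAAT boxes bound by NF-Y. Promoters of RefSeq (GRCm38.p6, 250 bases before to 50 after the gene start) were found for 39 of the 46 G2/M genes that were lower and for 18 of the 25 such S-phase genes. TTTGAA stood on either strand in the promoter of 28 of 39 G2/M genes (71.8%) and of 3 of 18 S-phase genes (16.7%), against 20.2% of all 27025 genes with a promoter and 14.2% of the tested genes matched. CCAAT stood in 76.9% of the G2/M and 72.2% of the S-phase promoters, against 41.1% of all, and both motifs in 61.5%, 11.1% and 8.97%. Matches of the motifs can share 1 base at their ends. A match describes these letters only. For the 4 genes below, the largest falls among G2/M genes with TTTGAA in that window, 30 bases around the match nearest to the gene start are printed 5′ to 3′ on the strand of the gene, with each match of the motif or of its reverse complement TTCAAA in capitals. The stretch of Anln holds both.
Anln (chr9:22389168-22389197, minus strand): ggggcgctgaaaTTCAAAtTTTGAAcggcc
Cenpf (chr1:189688067-189688096, minus strand): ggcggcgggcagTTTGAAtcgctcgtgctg
Kif11 (chr19:37376351-37376380, plus strand): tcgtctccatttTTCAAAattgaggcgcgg
Cdk1 (chr10:69352910-69352939, minus strand): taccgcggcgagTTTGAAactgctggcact
The central match stands close to the gene start and began 21 and 2 bases after it in Anln and Cenpf, and 19 and 15 bases before it in Kif11 and Cdk1. Cenpf, a kinetochore protein, had a log2 fold change of -3.10, the spindle motor Kif11 of -3.06, and Cdk1, the kinase that starts mitosis, of -3.01. Cdk1 was at 71.2, 34.6, 8.37 and 8.88 RPM in Ly6C-low and 176, 169.7 and 190.2 RPM in Ly6C-high libraries.

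Of 38 lineage transcription factors, 36 were tested, 10 were higher and 7 lower (median 0.17), against 13.1% and 15.1% of all genes tested. Apart from Pparg, the largest rise was that of Spic, the factor of red pulp macrophages, at 132, 48.0, 49.2 and 68.6 RPM against 7.23, 6.13 and 4.99 RPM (log2 fold change 3.30 ± 0.32 SE, adjusted p = 0.000401). Klf2 (0.999), Klf4 (1.45), Pou2f2 (1.73), Cebpb (1.49) and Bcl6 (1.14) were also higher. Gfi1, a repressor of granulocyte precursors, was at 23.8, 9.86, 2.20 and 0.845 RPM against 33.3, 40.5 and 86.1 RPM (log2 fold change -2.98 ± 0.80 SE, adjusted p = 0.0227), with replicate 1 the highest of the Ly6C-low libraries. It lost its call without Ly6C-high replicate 2 or 3 or Ly6C-low replicate 3 (adjusted p = 0.0572 to 0.0929). The count of 7 lower was 4 without Ly6C-high replicate 1 or 2, 2 without Ly6C-high replicate 3 and 3 without Ly6C-low replicate 3. Cebpe, Tfec, Runx3, Irf8, Cebpd and Cebpa were lower too, by 0.75 to 2.84 on the log2 scale.

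**Figure D4:**
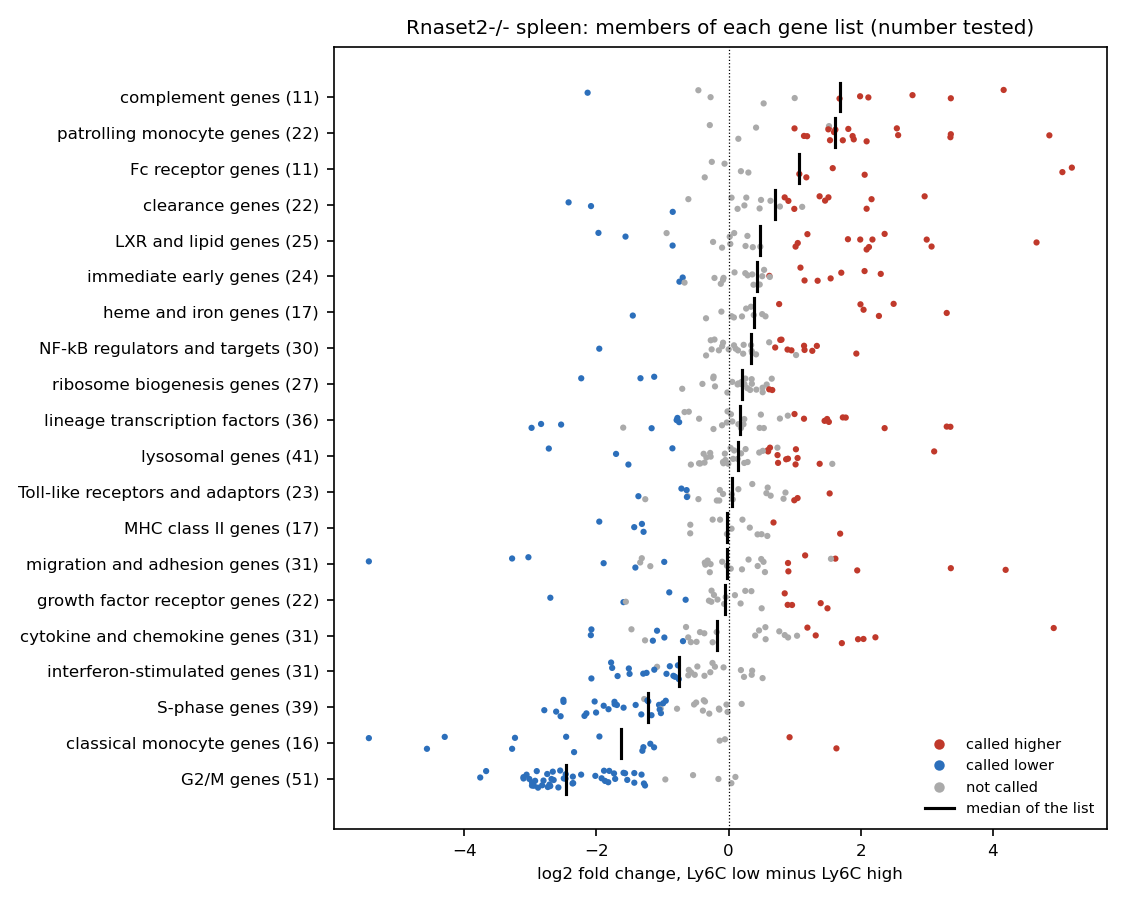
Log2 fold change of Ly6C-low over Ly6C-high (x axis) for the tested members of 20 gene lists, 1 point per gene, with the number tested in parentheses and a black bar at the median. The G2/M list has the lowest median, -2.46, and the complement and patrolling lists have the highest, 1.68 and 1.61, an order that turns without Ly6C-low replicates 1 and 2 (1.14 and 2.16). Lists overlap in members and the spread within most is wide.

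Lipid genes under the liver X receptors (LXR), nuclear receptors that answer to sterols, included 12 higher and 3 lower of 25 tested (26 listed, median 0.48). Of all genes tested, 13.1% were higher and 15.1% lower. Nr1h3, the gene of LXR alpha, was at 143, 78.9, 70.1 and 88.3 RPM against 19.8, 18.8 and 13.4 RPM (log2 fold change 2.36 ± 0.24 SE, adjusted p = 0.000465), while its partner Rxra, at 153, 159, 124 and 168 RPM against 178, 165 and 145 RPM, was not called (adjusted p = 0.62). The cholesterol exporters Abca1 (2.13) and Abcg1 (1.99) were higher. Pltp, the phospholipid transfer protein, was at 912, 1300.0, 854 and 822 RPM against 84.6, 172 and 100.4 RPM (log2 fold change 3.07 ± 0.26 SE, adjusted p = 0.000234), and Tgm2, a transglutaminase used in uptake of dying cells, at 302, 295, 445 and 507 RPM against 41.4, 60.6 and 40.3 RPM (log2 fold change 2.999 ± 0.26 SE, adjusted p = 0.000238). All 4 Ly6C-low libraries exceeded the Ly6C-high libraries for Nr1h3, Pltp and Tgm2. The 3 that were lower were Abca9, Lipg and Apoc1, and their count was 0 without Ly6C-high replicate 2 or 3 and 1 without Ly6C-low replicate 4.

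Of 21 complement genes only 11 were tested, with 6 higher and 1 lower (median 1.68), against 13.1% and 15.1% of all genes tested. C1qb, a chain of the first component, was at 784, 206, 125 and 182 RPM against 19.5, 8.72 and 12.5 RPM (log2 fold change 4.16 ± 0.54 SE, adjusted p = 0.00139), with replicate 1 far above the other Ly6C-low libraries and a fold change of 3.51 without replicates 1 and 2. C6 was at 19.6, 7.74, 11.5 and 18.95 RPM against 0.850, 0.882 and 1.76 RPM (log2 fold change 2.78 ± 0.33 SE, adjusted p = 0.000923). C3, the central component, was the 1 that was lower, at 916, 782, 707 and 887 RPM against 3008, 3969 and 3984 RPM (log2 fold change -2.13 ± 0.16 SE, adjusted p = 0.00013). The subsets did not overlap for C3. The count of 6 higher was 3 without Ly6C-high replicate 1, 2 or 3.

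Genes for the clearance of dying cells counted 9 higher and 3 lower of 22 tested (28 listed, median 0.71). Over all genes tested these shares were 13.1% and 15.1%. The receptor kinase Mertk was at 28.7, 5.68, 7.73 and 8.03 RPM against 0.945, 0.147 and 0.332 RPM (log2 fold change 2.97 ± 0.47 SE, adjusted p = 0.00312). It was low in all libraries but replicate 1, and did not reach the filter once replicates 1 and 2 were left out. Its relative Axl was at 41.3, 15.2, 22.1 and 24.4 RPM against 13.1, 10.4 and 11.8 RPM (log2 fold change 0.995 ± 0.28 SE, adjusted p = 0.027). Axl lost its call without Ly6C-high replicate 1, 2 or 3 or Ly6C-low replicate 3 or 4 (adjusted p = 0.0527 to 0.0902). Cd36, a scavenger receptor for lipids, was at 41.5, 181, 149 and 134 RPM against 15.6, 34.6 and 30.3 RPM (log2 fold change 2.09 ± 0.51 SE, adjusted p = 0.0163) and lost its call without Ly6C-high replicate 1 or 3 (adjusted p = 0.0513 to 0.0629). Trem2, a lipid receptor, went the other way at 16.2, 3.19, 4.26 and 2.40 RPM against 40.01, 17.0 and 21.5 RPM (log2 fold change -2.08 ± 0.53 SE, adjusted p = 0.018), as did Msr1 (-2.42) and Dock1 (-0.84). Trem2 lost its call without Ly6C-high replicate 1 or 3 (adjusted p = 0.0542 to 0.0692). The count of 9 higher was 4 without Ly6C-high replicate 3, and that of 3 lower was 0 without Ly6C-high replicate 1 and 1 without Ly6C-high replicate 2 or 3.

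Heme and iron genes counted 6 higher and 1 lower of 17 tested (21 listed, median 0.38), against 13.1% and 15.1% of all genes tested. The 1 lower, Steap3, was not called without Ly6C-high replicate 1, 2 or 3 or Ly6C-low replicate 3 or 4. Hmox1, the heme oxygenase, was at 753, 622, 978 and 1295 RPM against 213, 165 and 171 RPM (log2 fold change 2.28 ± 0.26 SE, adjusted p = 0.000745). Hebp1, a heme-binding protein, was at 221, 56.5, 33.1 and 38.8 RPM against 10.6, 8.92 and 12.3 RPM (log2 fold change 2.50 ± 0.55 SE, adjusted p = 0.0108), highest in replicate 1, where the erythroid markers were highest too. Of the listed markers of red pulp macrophages, Spic, Cd5l, Treml4, Hmox1, Adgre1, Mrc1 and Epor were higher, 7 of 11 tested, and Vcam1 (0.20), Cd163 (0.05), Slc40a1 (0.34) and Il18bp (0.64) were not called. The list summed to 2726, 2809, 3229 and 3724 RPM in the Ly6C-low and 733, 847 and 744 RPM in the Ly6C-high libraries, and Cd163 was at 3.48, 1.63, 1.56 and 2.68 RPM and 3.59, 2.01 and 1.28 RPM. Not all members are particular to red pulp macrophages, since Treml4 is also in the patrolling list, Epor among the erythroid markers and Adgre1 among the gate genes. The part of red pulp macrophages in these rises was not tested.

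Of cytokine and chemokine genes, 7 were higher and 6 lower of 31 tested (36 listed, median -0.18). All genes tested went both ways too, at 13.1% and 15.1%. Besides Il10, the inflammatory chemokine Ccl3 was at 1021, 1999.8, 2452 and 3234 RPM against 510.1, 412 and 385 RPM (log2 fold change 2.22 ± 0.37 SE, adjusted p = 0.00385), and Il1b, a product of the inflammasome, at 1155, 2008, 1776 and 1666 RPM against 425, 614 and 469 RPM (log2 fold change 1.71 ± 0.23 SE, adjusted p = 0.00172). Each Ly6C-low library exceeded the Ly6C-high libraries for both. Tnf was at 0.711, 0.710, 0.780 and 1.06 RPM against 0.378, 1.72 and 2.94 RPM and Il6 at 2.63, 1.84, 0.851 and 0.634 RPM against 0.803, 1.27 and 0.380 RPM. Both overlapped and neither was called (adjusted p = 0.361 and 0.367). Ifnb1 did not reach the filter, with at most 0.285 RPM in any of the 7 libraries. Vegfa, the vascular growth factor, was at 10.9, 4.61, 1.77 and 2.75 RPM against 13.3, 24.8 and 27.1 RPM (log2 fold change -2.08 ± 0.46 SE, adjusted p = 0.0113), and lost its call without Ly6C-high replicate 3 (adjusted p = 0.0527). The count of 6 lower was 3 without Ly6C-high replicate 3.

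Of 30 tested regulators and targets of NF-kB, 10 were higher and 1 lower (32 listed, median 0.35), against 13.1% and 15.1% of all genes. The 2 largest rises were inhibitors of the pathway, Nfkbiz at 1416, 2044, 2390.4 and 2493 RPM against 535, 585 and 494 RPM (log2 fold change 1.93 ± 0.23 SE, adjusted p = 0.000964) and Nfkbia at 793, 919, 894 and 932 RPM against 324, 489 and 274 RPM (log2 fold change 1.34 ± 0.21 SE, adjusted p = 0.00319). Nfkbiz can also activate some target genes. The only member that was lower was the co-stimulatory receptor Cd40, at 6.26, 16.0, 15.8 and 13.5 RPM against 67.1, 39.6 and 48.6 RPM (log2 fold change -1.96 ± 0.33 SE, adjusted p = 0.00411). With replicates 3 and 4 alone, 15 were higher, and the count was 6 without Ly6C-high replicate 3.

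Immediate early genes, which respond within minutes to stimulation and to cell handling, counted 8 higher and 2 lower of 24 tested (26 listed, median 0.42). Over all genes tested these shares were 13.1% and 15.1%. The count of 2 lower was 1 without Ly6C-high replicate 1 or 2 or Ly6C-low replicate 2 or 4 and 0 without Ly6C-high replicate 3 or Ly6C-low replicate 1. Among the 8 that were higher, Hspa1a (2.06) and Hspa1b (2.30), heat shock genes, and Ier5 (1.71) rose most. Hspa1b was at 3.84, 37.0, 25.5 and 26.6 RPM against 4.16, 2.35 and 2.47 RPM, so that replicate 1 overlapped the Ly6C-high libraries, and lost its call without Ly6C-high replicate 1, 2 or 3 or Ly6C-low replicate 2, 3 or 4 (adjusted p = 0.0584 to 0.0943).

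Interferon-stimulated genes were lower or not called. Of 31 tested (35 listed), 15 were lower and none higher (median -0.75), against 15.1% and 13.1% of all genes tested. Without replicates 1 and 2 the counts were 12 lower and 2 higher. The chemokine Cxcl10 was at 26.6, 14.1, 9.50 and 9.16 RPM against 86.2, 47.6 and 54.1 RPM (log2 fold change -2.08 ± 0.34 SE, adjusted p = 0.00356), and Oasl2, of the oligoadenylate synthetase family, at 148, 96.2, 116 and 163 RPM against 547, 378 and 412 RPM (log2 fold change -1.76 ± 0.21 SE, adjusted p = 0.000922). Neither overlapped between the subsets. Mx1 was at 4.27, 5.11, 13.1 and 18.8 RPM against 47.6, 25.7 and 28.6 RPM (log2 fold change -1.78 ± 0.49 SE, adjusted p = 0.0247), and lost its call without Ly6C-high replicate 1, 2 or 3 or Ly6C-low replicate 2 (adjusted p = 0.0592 to 0.0897). Oas1a (-0.83, adjusted p = 0.0421) lost its call without Ly6C-high replicate 1, 2 or 3 or Ly6C-low replicate 2 or 3 (adjusted p = 0.0504 to 0.142), and also without Ly6C-low replicates 1 and 2 together (-0.41, adjusted p = 0.0664). The count of 15 lower was 8 without Ly6C-high replicate 1 or 3. Ifih1 (0.23) and Rsad2 (0.36), an antiviral sensor and effector, were not called, though Ifih1 was called higher without replicates 1 and 2 (0.70, adjusted p = 0.0133).

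Among genes of Toll-like receptor responses, 3 of 23 tested were higher and 4 lower (26 listed, median 0.05), shares close to those of all genes tested (13.1% and 15.1%). Slc15a3, an endolysosomal peptide transporter, was at 200.2, 211, 282 and 309 RPM against 106, 85.5 and 68.3 RPM (log2 fold change 1.53 ± 0.23 SE, adjusted p = 0.00229). Lgmn, the asparagine endopeptidase that can process endosomal receptors, was at 134, 137, 178 and 162 RPM against 67.9, 87.1 and 67.3 RPM (log2 fold change 1.04 ± 0.17 SE, adjusted p = 0.00365). Tlr9, the receptor for unmethylated DNA, was at 67.2, 46.8, 31.9 and 37.6 RPM against 132, 111 and 107 RPM (log2 fold change -1.36 ± 0.21 SE, adjusted p = 0.00297), which separated every library. Unc93b1, the chaperone of the endosomal receptors, had an adjusted p of 0.0246 but a log2 fold change of -0.46, under 1.5-fold. The count of 3 higher was 6 without Ly6C-low replicate 1, and that of 4 lower was 2 without Ly6C-high replicate 1 or 2 or Ly6C-low replicate 2 or 3.

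Of 17 genes of class II antigen presentation, all tested, 2 were higher and 4 lower (median -0.02), against 13.1% and 15.1% of all genes tested. The count of 2 higher was 1 without Ly6C-high replicate 2 or 3 or Ly6C-low replicate 1, 2 or 4. Cd40, described above, fell most. Ciita, the class II transactivator, was at 17.6, 46.1, 13.6 and 9.23 RPM against 52.7, 39.4 and 62.1 RPM (log2 fold change -1.43 ± 0.44 SE, adjusted p = 0.0374), overlapped in replicate 2, and lost its call without Ly6C-high replicate 1, 2 or 3 or Ly6C-low replicate 3 or 4 (adjusted p = 0.0738 to 0.126). H2-Ob, a subunit of the peptide-editing modulator, was at 10.2, 25.5, 9.72 and 9.16 RPM against 2.41, 3.73 and 3.56 RPM (log2 fold change 1.69 ± 0.34 SE, adjusted p = 0.00831), with replicate 2 the highest, where the markers of B and plasma cells were highest as well. H2-Aa (-0.13) and H2-Ab1 (-0.02), the class II chains themselves, were not called.

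Of adhesion and migration genes, 7 were higher and 6 lower of 31 tested (34 listed, median -0.02, as over all genes), where 13.1% and 15.1% of all genes tested were. Beside Ccr2 and Itgax, Pecam1, an adhesion molecule of vessel walls and leukocytes, was at 1456, 2195, 1904 and 1975 RPM against 71.2, 160.0 and 91.9 RPM (log2 fold change 4.19 ± 0.29 SE, adjusted p = 7.5e-05), a 17.5-fold difference of means. The count of 7 higher was 11 without Ly6C-low replicate 1. Integrin genes went in both directions, with Itgal (1.62), Itgb1 (1.16), Itgav (0.91) and Itgb2 (0.90) higher and Itga1 (-3.03), Itgb7 (-1.89), Itga6 (-1.41) and Itga5 (-0.97) lower.

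Of 22 growth factor and cytokine receptor genes, all tested, 5 were higher and 4 lower (median -0.05), against 13.1% and 15.1% of all genes tested. Met, the receptor for hepatocyte growth factor, was at 14.2, 6.88, 5.60 and 10.5 RPM against 85.4, 53.7 and 54.0 RPM (log2 fold change -2.70 ± 0.30 SE, adjusted p = 0.000679). Csf2rb2, a receptor chain for interleukin 3, was at 90.2, 46.6, 39.3 and 56.4 RPM against 205, 171 and 140.2 RPM (log2 fold change -1.59 ± 0.25 SE, adjusted p = 0.00322). Tgfbr1 (1.497) and Tgfbr2 (1.39), which form the receptor for TGF-beta, were both higher, and so was Csf1r (0.96), the receptor for M-CSF. The count of 5 higher was 3 without Ly6C-high replicate 2 or 3 or Ly6C-low replicate 3 or 4, and that of 4 lower was 2 without Ly6C-high replicate 1. Fc receptor and related genes, tested for 11 of 14 listed, counted 6 higher and none lower (median 1.07), against 13.1% and 15.1% of all genes. The 6 included Cd72 and the kinase gene Syk. The 5 not called were the IgG receptor genes Fcgr1, Fcgr2b and Fcgr3, with Pirb and Trim21. After Cd72 and Fcrl5 came Fcgrt, the neonatal receptor that recycles IgG, at 212, 331, 281 and 281 RPM against 75.1, 56.1 and 65.7 RPM (log2 fold change 2.06 ± 0.18 SE, adjusted p = 0.000238).

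Lysosomal genes counted 12 higher and 4 lower of 41 tested (45 listed, median 0.14), against 13.1% and 15.1% of all genes tested. Acp5, the tartrate-resistant phosphatase, was at 719, 439, 323 and 367 RPM against 46.9, 74.2 and 36.6 RPM (log2 fold change 3.11 ± 0.30 SE, adjusted p = 0.000394). The tetraspanin gene Cd63 was at 132, 104, 20.4 and 22.7 RPM against 203, 387 and 507 RPM (log2 fold change -2.72 ± 0.66 SE, adjusted p = 0.0159), and Npc2, a lysosomal cholesterol carrier, at 484, 419, 340.2 and 479.9 RPM against 1509, 1404 and 1299.6 RPM (log2 fold change -1.70 ± 0.15 SE, adjusted p = 0.000245). For Cd63 the Ly6C-low libraries fell into replicates 1 and 2, near 100 RPM or above, and replicates 3 and 4, near 20 RPM, and the gene lost its call without Ly6C-high replicate 2 or 3 (adjusted p = 0.0609 to 0.0687). The count of 12 higher was 6 without Ly6C-high replicate 2 or 3.

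Genes of ribosome assembly were mostly not called, with 2 higher and 3 lower of 27 tested (30 listed, median 0.20), both below the shares of all genes tested (13.1% and 15.1%). The count of 2 higher was 1 without Ly6C-high replicate 1, 2 or 3 or Ly6C-low replicate 1. The 3 that were lower were Mrto4 (-2.23), Npm1 (-1.33) and Wdr12 (-1.13), which lost its call without Ly6C-high replicate 3 (adjusted p = 0.0685). Mrto4 was at 7.11, 3.90, 6.31 and 6.27 RPM in Ly6C-low and 17.1, 32.2 and 53.8 RPM in Ly6C-high libraries (log2 fold change -2.23 ± 0.36 SE, adjusted p = 0.0032), and Npm1, the nucleolar protein nucleophosmin, at 93.4, 68.3, 71.8 and 87.9 RPM and 179.6, 177 and 266 RPM. Neither overlapped between the subsets.

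Markers of other cell types moved as follows, where 13.1% of all genes tested were higher and 15.1% lower. Of 19 tested markers of neutrophils and precursors, 9 were lower and none higher, and without replicates 1 and 2 it was 17. The count was 2 without Ly6C-high replicate 2, 1 without Ly6C-high replicate 3, 15 without Ly6C-low replicate 1 and 3 without Ly6C-low replicate 3. Fcnb, named above as a gene of monocytes too, is among the 9, and the part of neutrophils was not tested. Elane, neutrophil elastase, was at 191, 72.7, 14.7 and 10.1 RPM against 292, 326 and 695 RPM (log2 fold change -3.34 ± 0.89 SE, adjusted p = 0.0217), whereas Ly6g, against which cells were depleted, was at 152, 78.8, 17.0 and 11.6 RPM against 24.2, 65.0 and 72.0 RPM and was not called (adjusted p = 0.823). Erythroid markers were higher for 6 of 7 tested and B and plasma cell markers for 4 of 5 tested, of 15 listed for each. Without replicates 1 and 2 it was 3 of 4 erythroid markers, and 4 markers of B and plasma cells were higher and 1 lower, but the count of 4 was 0 without Ly6C-high replicate 1, 2 or 3 and 1 without Ly6C-low replicate 2. Of 9 T cell markers 1 was lower, which was lost without Ly6C-high replicate 1, 2 or 3 or Ly6C-low replicate 3 or 4. Of 11 NK cell markers 2 were lower, or 9 without replicates 1 and 2, and the count was 0 without Ly6C-high replicate 2 or 3, 6 without Ly6C-low replicate 2 and 1 without Ly6C-low replicate 3 or 4. Of 12 dendritic cell markers 1 was higher and 1 lower, of 7 plasmacytoid dendritic cell markers 3 were higher, of 7 platelet markers 1 was higher, and of 8 markers of eosinophils, basophils and mast cells 3 were higher and 1, Siglecf, lower. The dendritic cell marker that was higher was lost without Ly6C-high replicate 1, 2 or 3 or Ly6C-low replicate 2, the lower count was 3 without Ly6C-low replicate 2, and the plasmacytoid count was 1 without Ly6C-high replicate 1 or 3. None of 6 progenitor markers was called by limma, while 1 was lower by DESeq2 and 3 of 5 without replicates 1 and 2. Of 13 markers of macrophages and monocytes, 3 were higher (Adgre1, Fcer1g and Csf1r) and 3 lower (Lyz2, Mpeg1 and Lgals3).

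To ask whether the subset difference depended on RNase T2, the difference in Rnaset2-/- mice minus that in wild-type mice was fitted over all 13 splenic libraries. The test gives a positive value where Ly6C-low exceeds Ly6C-high by more in Rnaset2-/- than in wild-type mice, whatever the sign of either. It was positive for 877 (8.40%) and negative for 668 (6.40%) of 10440 genes tested. With RPM as deposited, which moves the median of this difference by 0.12 from -0.01 to 0.11, the counts were 1096 and 427. Without Ly6C-low replicates 1 and 2 they were 1201 and 1034 of 10321 genes. Single libraries also moved them, to 553 and 369 without Rnaset2-/- Ly6C-high replicate 2, to 464, 488 and 481 higher and 381, 408 and 375 lower without wild-type Ly6C-high replicates 1, 2 and 3, to 432 lower without wild-type Ly6C-low replicate 2, and to 575 and 440 without wild-type Ly6C-low replicate 3. The Rnaset2-/- libraries enter both this test and the comparison above, so that the 2 are not independent, and the levels in each group are given side by side. Depth does not cancel in this test, since the Rnaset2-/- Ly6C-high libraries held 20404155 to 21167602 reads and the other splenic libraries 14059645 to 14572065. Depth and this difference cannot be told apart. In the wild-type Ly6C-high libraries, markers of NK cells summed to 1059.7, 1027 and 998 RPM and of T cells to 385, 364 and 381 RPM, above all other splenic groups, and their part in these differences was not tested.

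Cd72 was at 14.0, 15.03 and 11.8 RPM in wild-type Ly6C-low and 17.4, 18.9 and 17.5 RPM in wild-type Ly6C-high libraries, far below the Rnaset2-/- Ly6C-low libraries given above, and its subset difference was larger in Rnaset2-/- mice by 5.44 ± 0.33 (SE), adjusted p = 3.29e-06. Camk2n1 was at 5.24, 5.97 and 5.55 RPM and 4.86, 6.31 and 6.02 RPM, without a gap between the wild-type subsets, and differed by 5.09 ± 0.37 (SE), adjusted p = 1.78e-05. Il10 was at 4.61, 5.56 and 7.52 RPM and 2.64, 1.04 and 2.03 RPM in wild-type mice, and its subset difference was larger in Rnaset2-/- mice by 3.57 ± 0.61 (SE), adjusted p = 0.00324. Ccl3 was lower in wild-type Ly6C-low, at 524, 362 and 483 RPM, than in Ly6C-high libraries, at 1004, 999 and 947 RPM, and thus ran in the opposite direction. Its difference between genotypes was 3.20 ± 0.45 (SE), adjusted p = 0.00129.

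The plasma cell genes Jchain, Pou2af1 and Mzb1 and the erythroid gene Slc4a1 were, with Cd72, the 5 genes of the largest positive difference among those with at least 10 RPM in 1 of the 4 groups. Jchain was at 493, 1220.2, 180.0 and 156 RPM in Rnaset2-/- Ly6C-low, 76.4, 125 and 83.1 RPM in Rnaset2-/- Ly6C-high, 27.3, 16.0 and 16.9 RPM in wild-type Ly6C-low and 627, 553 and 609 RPM in wild-type Ly6C-high libraries. Its difference was 6.69 ± 0.76 (SE), adjusted p = 0.0003, and the summed markers of B and plasma cells were likewise higher in wild-type Ly6C-high (729, 647 and 713 RPM) than in wild-type Ly6C-low libraries (168, 179 and 168 RPM). Within Rnaset2-/- mice, Jchain lost its call without Ly6C-high replicate 1, 2 or 3 (adjusted p = 0.0797 to 0.13). The part of plasma cells in it was not tested.

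Negative differences were led by Serpinb10, Cited4, Ly6i, Coa6 and Cd36. Serpinb10, a serine protease inhibitor, was at 306, 316 and 276 RPM in wild-type Ly6C-low and 324, 315 and 316 RPM in wild-type Ly6C-high libraries, a gap far smaller than that between 25.3, 20.5, 11.8 and 5.14 RPM and 186, 139 and 148 RPM in Rnaset2-/- mice (-3.48 ± 0.49 (SE), adjusted p = 0.00129). Cd36 was at 563, 604 and 522 RPM in wild-type Ly6C-low and 18.6, 16.7 and 18.7 RPM in wild-type Ly6C-high libraries, and its subset difference was smaller in Rnaset2-/- mice (-2.94 ± 0.61 (SE), adjusted p = 0.00776). Of the 22 patrolling genes, 10 had a smaller subset difference in Rnaset2-/- than in wild-type mice and none a larger one (median difference -0.93). Of all genes tested, 6.40% had a negative and 8.40% a positive difference. Among the 10 were Cd36, Cd300e (-1.98 ± 0.35 (SE), adjusted p = 0.00371) and Pparg (-1.40 ± 0.34 (SE), adjusted p = 0.0157). Without Ly6C-low replicates 1 and 2 the differences were smaller, at -2.53 for Cd36, -1.61 for Cd300e and -0.98 for Pparg, and all were still called. The count of 10 was not taken in that fit. Cd300e was at 713, 665 and 717 RPM in wild-type Ly6C-low and 4.09, 6.52 and 6.79 RPM in wild-type Ly6C-high libraries. Pparg was at 378, 432 and 387 RPM and at 15.4, 14.7 and 15.3 RPM. For both genes, every Rnaset2-/- Ly6C-high library lay above the wild-type Ly6C-high libraries. For the 51 G2/M genes 6 had a more negative difference in Rnaset2-/- mice, against 6.40% of all genes tested, and none a more positive one (median -0.13).

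**Figure D5:**
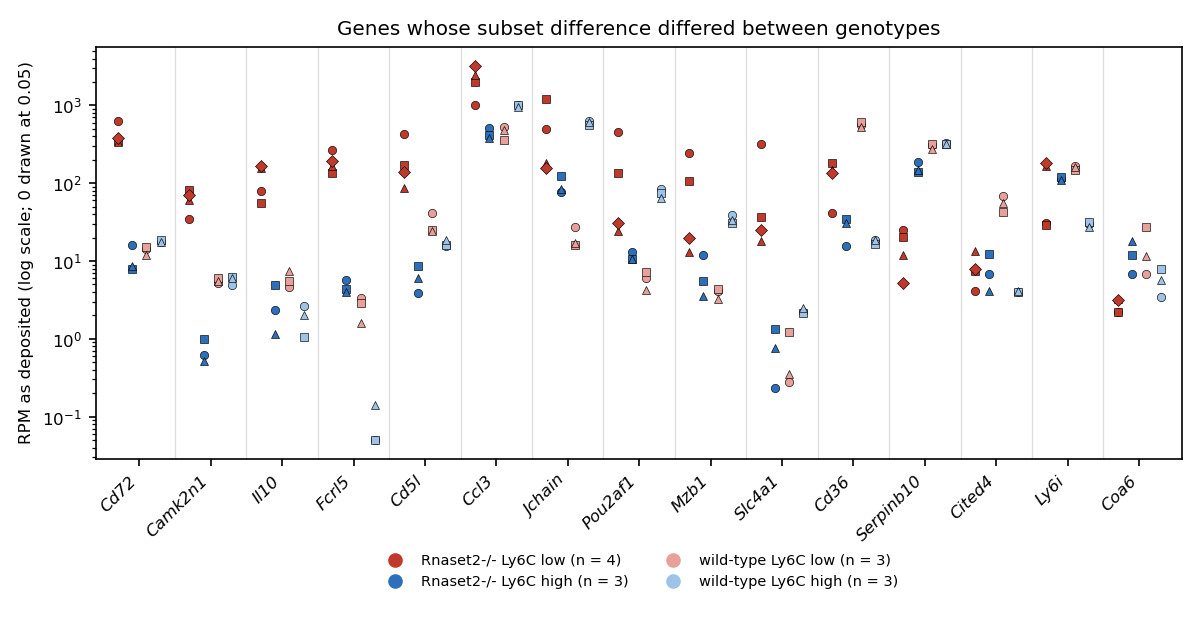
RPM as deposited (y axis, log scale, values of 0 drawn at 0.05) of 15 genes in each splenic library, by genotype and subset. Cd72 and Camk2n1 are high only in the 4 Rnaset2-/- Ly6C-low libraries among the 13 splenic libraries, and Cd36 and Cited4 are highest in the wild-type Ly6C-low libraries.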

How the data were processed

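Macrophages were sorted from spleen and liver by flow cytometry and their RNA was read with a panel of mouse amplicons (Ion AmpliSeq Transcriptome), 1 short amplicon per gene, from 1 ng of RNA with an integrity number above 7. The authors sequenced the amplicons on an Ion Proton, counted reads with the AmpliSeqRNA plug-in and deposited RPM, that is reads per 1000000 mapped reads, in 1 table of 29 libraries. The submitters' processing notes name mm10. In the study, DESeq2 was run on pairs of groups with relative log expression (RLE) factors. Because the deposited unit is RPM, the test used here was limma (3.58.1, R 4.3.3, trend) on log2(RPM / RLE factor + 1), a scale that understates the change of low genes, with Benjamini-Hochberg adjustment over all genes tested and calls at >1.5-fold and adjusted p below 0.05. Adjusted p and SE in the text are from that test, and levels are RPM as deposited. Values were whole multiples of 1 read within 0.1 reads in 100% of cases, so that reads were recovered and tested with DESeq2 (1.42.0) and edgeR's quasi-likelihood test (4.0.16) as alternatives. DESeq2 called 1578 higher and 1485 lower, and edgeR 1442 and 1313. Totals were 14059645 to 21167602 reads per splenic library, and 3 reads equalled 0.142 to 0.213 RPM, which limits low values by counting error only.

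Gene locations came from GENCODE vM21 (GRCm38). Of the genes passing the level filter, 53 had no location and 301 lay on X, Y or the mitochondrial genome and were left out. No 2 replicates agreed within counting noise (chi-square per degree of freedom of 6.58 or more). Genes were named by rule: the 12 largest rises and falls among called genes with at least 10 RPM in the higher group, no overlap and no place in the gates; the 3 largest changes of each of 20 lists; the 5 largest differences between genotypes in each direction; autosomal genes the study names; and the gate genes. Members and lists were chosen with earlier results of these data known. Further alternatives changed the pseudocount (0.1), the filter, the scaling, the libraries and the threshold. The scripts were tested on simulated data. Some genes that the rule names are not reported here.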

Additional observations from a re-analysis of the deposited data

Results flagged for a closer look

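In 10 named genes, 1 of the 4 Ly6C-low libraries of Rnaset2-/- spleen lay apart from the other 3 by Dixon's test, which chance would give in about 1 in 20 groups. In replicate 1 these were Adamdec1 at 391 RPM, Slc4a1 at 321 RPM, Ptprm at 147 RPM, F13a1 at 319 RPM, C1qb at 784 RPM, Mertk at 28.7 RPM, Trem2 at 16.2 RPM, Hebp1 at 221 RPM and Rsad2 at 104 RPM. In replicate 2 it was H2-Ob at 25.5 RPM. In each of the 10 that library was the highest of the 4.

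The Y-linked genes, which enter no comparison here, summed to 301 RPM in Ly6C-low replicate 2 and to at most 0.427 RPM in the other 12 splenic libraries.

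The subset difference (log2, Ly6C-low minus Ly6C-high) was more positive in Rnaset2-/- than in wild-type mice, whatever the sign of either, by the interaction test for 32 of the named genes. By value these were Jchain (6.69), Pou2af1 (6.12), Slc4a1 (5.84), Mzb1 (5.58), Cd72 (5.44), Camk2n1 (5.09), Adam23 (4.27), Cd5l (3.75), Ptprm (3.71), Il10 (3.57), Fcrl5 (3.27), Ccl3 (3.20), Cd3e (3.09), C1qb (2.995), Rsad2 (2.90), Art3 (2.89), Mertk (2.58), Hebp1 (2.49), Spic (2.32), Adamdec1 (2.22), C6 (2.17), H2-Ob (1.78), Hspa1a (1.64), Axl (1.62), Ier5 (1.59), Hmox1 (1.38), Pecam1 (1.33), Slc15a3 (1.06), Adgre1 (1.01), Nfkbiz (0.99), Nfkbia (0.94) and Rxra (0.69). It was smaller or more negative for Serpinb10 (-3.48), Cited4 (-3.48), Ly6i (-3.15), Coa6 (-3.01), Cd36 (-2.94), Ifi203 (-2.73), Mrto4 (-2.47), Cd300e (-1.98) and Pparg (-1.40). Among them Slc4a1, Jchain, Mzb1 and Cd3e are listed markers of other cell types, Pou2af1 is a B cell factor, and Spic, Cd5l, Hmox1 and Adgre1 are listed markers of red pulp macrophages. The summed levels of these lists differed between the splenic groups. The red pulp list, given above for Rnaset2-/- mice, summed to 2245, 2099 and 2503 RPM in wild-type Ly6C-low and 649, 633 and 673 RPM in wild-type Ly6C-high libraries. The part of these cell types was not tested. Rxra and Cd3e were not called between the subsets of Rnaset2-/- mice. In wild-type mice the Ly6C-low mean was below the Ly6C-high mean for both, at 130 against 247 RPM and 1.48 against 42.0 RPM. All 41 differences between genotypes were also called without Ly6C-low replicates 1 and 2 and with RPM as deposited. These fits called more positive differences than the main fit. The 41 were not followed in fits that called fewer, such as those without 1 wild-type Ly6C-high library (464 to 488 positive) or of all 29 libraries (523). DESeq2 called 40 of them and gave Fcrl5 a difference of -0.60 (adjusted p = 0.749), where the wild-type Ly6C-high libraries held 0 to 0.140 RPM.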

How the results depend on the processing

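Of the 95 named genes tested, 81 were called, of which 64 stayed called under each of the 18 alternatives and 17 lost the call under at least 1. Of the 14 not called, 6 were called under at least 1. One value changed direction: Ly6i had a log2 fold change of -0.65 with all libraries (not called) and 0.65 without Ly6C-low replicates 1 and 2 (adjusted p = 0.0017). Without single libraries the count of genes higher ran from 767 to 1637 and of genes lower from 873 to 1844, and for the difference between genotypes from 464 to 1109 and from 369 to 873. At over 2-fold, 723 genes were higher and 890 lower, and 282 had a negative difference between genotypes. Fitting all 29 libraries gave 523 positive and 346 negative differences, RPM as deposited 427 negative, and leaving out Ly6C-low replicates 1 and 2 1034 negative. The cause of these shifts was not tested. Replicate numbers did not pair the samples (correlations of same-numbered libraries of -0.187, 0.0995 and -0.249). A replicate block, which drops Ly6C-low replicate 4, called 608 higher and 621 lower, of which 603 and 612 were among the genes called without it. It left 3 S-phase and 26 G2/M genes lower. Low genes are limited by depth, and the filter of 1 RPM left 5 of 16 autosomal complement genes untested.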

Other observations

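Genes on the X chromosome were outside the comparison, but some belong to its lists. In a fit of all chromosomes Tlr13, the mouse receptor for bacterial ribosomal RNA, was at 35.2, 41.4, 60.1 and 56.7 RPM in the Ly6C-low and 157, 124 and 97.0 RPM in the Ly6C-high libraries of Rnaset2-/- spleen (log2 fold change -1.36 ± 0.25 SE, adjusted p = 0.00552). The subsets did not overlap. In wild-type spleen it was at 107, 86.5 and 74.5 RPM in Ly6C-low and 47.1, 44.8 and 45.5 RPM in Ly6C-high libraries, so that the order of the subsets was the opposite. The subset difference in Rnaset2-/- minus that in wild-type mice was -2.43 ± 0.31 (SE), adjusted p = 0.000733. Tlr7, a receptor for single-stranded RNA, was at 169, 312, 269 and 261 RPM against 219.5, 219 and 161 RPM in Rnaset2-/- mice (adjusted p = 0.31) and Tlr8 at 105, 111, 115 and 122 RPM against 101, 97.4 and 85.1 RPM (adjusted p = 0.135). Neither was called. Lamp2, a protein of the lysosomal membrane, was lower in Ly6C-low macrophages, at 452, 233, 223 and 321 RPM against 546, 448 and 502 RPM (log2 fold change -0.74 ± 0.22 SE, adjusted p = 0.0342), with replicate 1 overlapping the Ly6C-high libraries.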
